A study of Drosophila melanogaster with 8 samples.

Results

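Transcript levels in early Drosophila melanogaster embryos laid by mothers without NSUN2 were compared directly with those of wild-type embryos of the same age, 2-3 h after egg laying. The comparison used 2 of the 8 mRNA-seq tables of the series, 1 for each genotype. The other 6 tables (wild type at 0-0.5 h, 1-2 h, 3-4 h and 4-5 h, knockout at 0-0.5 h and 4-5 h) served to place the differences in time. Wild-type embryos were the offspring of w1118 females and w1118 males (the strain label reads WIII8 in every table). Knockout embryos, called maternal NSUN2 knockout here, were the offspring of NSUN2-/- females and w1118 males, so both sets of embryos had w1118 fathers. The mutant alleles were made by CRISPR/Cas9, with Cas9 active in the germ line through vas-Cas9, and the label does not say which of the mutant lines a table comes from. The gene lies on the X chromosome, so sons of such mothers receive the mutant allele only, whereas daughters also receive a wild-type allele from the father. Each collection pooled between 70 and 100 whole embryos of both sexes. Embryos also differ between the tables in mothers, collection and possibly genetic background outside NSUN2, and these cannot be told apart from the genotype. In such whole-embryo RNA, fewer cells of a type and less RNA per cell cannot be told apart.

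For its first hours the fly embryo runs on mRNAs that the mother loaded into the egg. In the maternal-to-zygotic transition these mRNAs are removed in steps, first by factors that the mother supplied and later by products of the embryo's own genes, while the zygotic genome is switched on, weakly during the rapid nuclear cycles and broadly at cellularisation. The window of 2-3 h covers the end of the nuclear cycles and the start of cellularisation. NSUN2 is a methyltransferase that places 5-methylcytosine in tRNAs and mRNAs, and the study asked what its absence from the egg does to this transition.

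Levels are given in FPKM, fragments per kilobase of transcript scaled to the mapped fragments of the table, as deposited, each with the interval that Cufflinks computed inside its own table. Differences are knockout minus wild type on the scale of log2(FPKM + 1), on which the difference of a weakly expressed gene comes out smaller than its fold. As each genotype has 1 table, there was no replicate to test a difference against, and p-values are left out. A gene was called higher or lower when the difference was at least 1 (2-fold) and the 2 intervals did not overlap. Genes were tested when FPKM reached 1 in either table and the gene span was at least 300 bases. Of 15598 genes listed, 7374 were tested. The intervals hold the uncertainty of the estimate within a table. They do not hold the variation from one embryo collection to the next.

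The tables listed between 9164 and 11895 genes above FPKM 0. For genes with FPKM of 10 to 20, the median half-width of the interval was 8.96% of the value in the wild-type 2-3 h table and 7.79% in the knockout 2-3 h table. The wild-type 2-3 h table had the highest summed FPKM of all 8 (1031330, against 841687 for the knockout at 2-3 h). It also had the lowest median level of the genes tested, 13.2. The neighbouring wild-type tables had medians of 18.6 (1-2 h) and 22.7 (3-4 h), and the knockout one of 23.7. Cytoplasmic ribosomal protein genes held 41.7% of its summed FPKM, against 34.1% in the knockout. As markers of the mother's tissue, 3 yolk protein genes summed to 0.0305 and 0.0716 FPKM. Of 11 follicle cell and chorion genes, Cp15 was the only one above FPKM 1 in either table, at 1.34 and 11.7, and 5 of the other 10 were listed at 0 in both. The summed FPKM of 12 genes of muscle, nerve and cuticle, which mark older embryos, was 9.62 in the wild type and 4.13 in the knockout. Most of it came from 2 genes that went opposite ways, the neuronal gene elav (7.96 and 0.765) and the muscle actin gene Act57B (0.361 and 2.84). That of 9 early embryo genes was 423 and 943. Of these 9, 6 were called higher and none lower. Both sums thus differed between the genotypes, whereas the members of a set did not all go the same way. The part of these markers in the results below was not tested.

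Nsun2, the mutated gene (chromosome X, 4005189 to 4007767 in the BDGP5 genome), had an FPKM of 2.71 in wild-type embryos at 2-3 h (interval 2.25 to 3.16) and 0.213 in knockout embryos (interval 0.0989 to 0.328). The knockout level was 12.7-fold lower, a difference of -1.61 on the log2 scale, in the direction that the label gives.

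At 2-3 h, 2462 of the 7374 genes tested (33.4%) were higher in the knockout and 765 (10.4%) were lower. Among them, 769 were higher and 230 were lower by at least 4-fold, and 145 were higher and 69 were lower by at least 8-fold. The median difference over all genes tested was 0.45 (quartiles -0.40 and 1.32), and the median of each gene group below is to be read beside this value. The ratio of higher to lower calls depended on how the tables were scaled. Higher genes made up 76.3% of the calls on the deposited FPKM. They made up 52.9% (1678 higher, 1492 lower) after median-of-ratios scaling, which moved the median of all genes to -0.03, and 55.2% after quantile normalization, which moved it to 0.01. Scaling to equal summed FPKM moved it to 0.72. The matched tables at other times differed less. At 0-0.5 h, 8.25% of 6836 genes tested were higher and 1.7% lower, and at 4-5 h 11.6% of 7937 were higher and 7.42% lower.

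**Figure D1:**
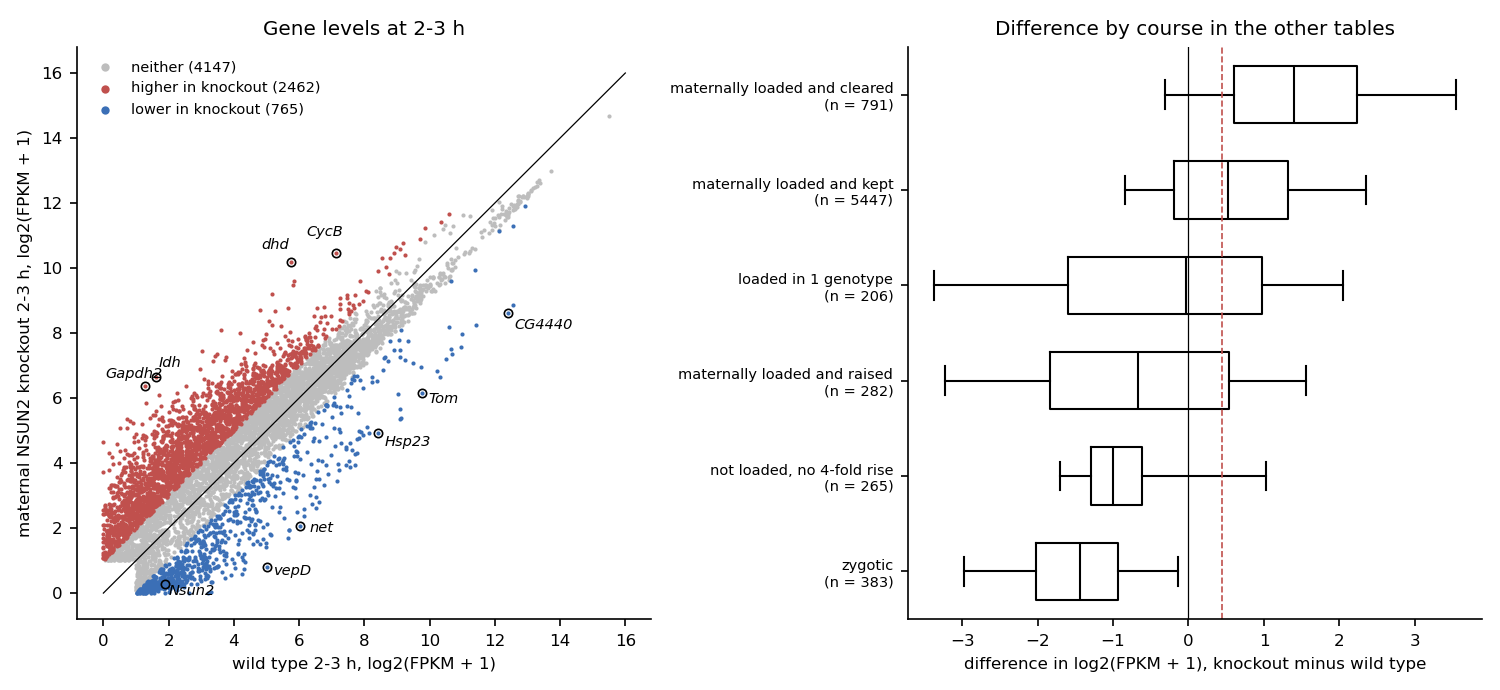
Left, log2(FPKM + 1) of the 7374 genes tested in wild-type (x axis) and maternal NSUN2 knockout embryos (y axis) at 2-3 h, with genes called higher in red, lower in blue and neither in grey, and circles around genes named in the text (vepD is ventrally-expressed-protein-D). Right, the difference (x axis, log2) in 6 classes of genes set from the other tables, as median, quartiles and the range from the 5th to the 95th percentile, with all genes' median of 0.45 as the dashed line: genes cleared after loading lay at a median of 1.39 and zygotic genes at -1.44.

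Genes were next sorted by their course in tables other than the 2 compared. A gene was taken as maternally loaded when FPKM reached 1 in both genotypes at 0-0.5 h, and then as cleared, raised or kept when its wild-type level at 4-5 h was 4-fold or more below that at 0-0.5 h, 4-fold or more above it, or neither, on the log2(FPKM + 1) scale. It was taken as zygotic when FPKM was under 1 in both genotypes at 0-0.5 h and the wild-type level at 4-5 h was 4-fold or more above it. Of 791 cleared genes tested, 494 (62.5%) were higher in the knockout and 10 were lower, with a median difference of 1.39. Their median level was 12.5 FPKM in the wild type and 39.9 in the knockout. Of 5447 genes loaded and kept, 1859 were higher and 177 lower (median 0.52). The share higher, 34.1%, was near the 33.4% of all genes. Under median-of-ratios scaling 1229 were higher and 751 lower, and under quantile normalization 1090 and 530. Of 282 genes loaded and raised, 44 were higher and 114 lower (median -0.67). Zygotic genes went the other way from the cleared ones. Of 601 such genes, 383 passed the filter on low levels, and of these 271 were lower and 2 were higher. Their median level was 3.63 FPKM in the wild type and 0.609 in the knockout, a median difference of -1.44. A weakly expressed gene could pass the filter through the wild type alone. Without the filter the zygotic median was -0.97. Of 206 genes loaded in 1 genotype only, 48 were higher and 65 lower. Of 265 tested genes that were not loaded and had no 4-fold rise, 15 were higher and 128 lower (median -1.0, or -0.05 without the filter).

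The largest differences towards lower levels belonged to genes that the wild type had already switched on. The first by size was ventrally-expressed-protein-D (chromosome 2R, 18296155 to 18296847), a gene of the ventral embryo. Its FPKM was 31.6 in the wild type (interval 27.2 to 35.97) and 0.745 in the knockout (0.161 to 1.33), 42.4-fold lower. In the wild type it went from 0.693 at 0-0.5 h to 4.97 at 1-2 h and 111 at 4-5 h, and the knockout reached 45.7 at 4-5 h. The knockout at 2-3 h was thus close to the wild-type level at 0-0.5 h. The next were net (chromosome 2L, 82421 to 87387), a helix-loop-helix repressor, at 64.4 FPKM in the wild type and 3.198 in the knockout, and CG13653, at 49.2 and 2.22. Pka-C3, which encodes a catalytic subunit of cAMP-dependent protein kinase, had 95.7 and 5.91. The noncoding bxd transcript of the bithorax complex had 70.2 and 4.14. The homeodomain cofactor gene hth (chromosome 3R, 6335569 to 6464386) had 50.1 and 2.83, the TNF ligand gene egr 143 and 9.89, the gap junction gene inx3 552 and 40.4, and the ecdysone synthesis gene dib 50.3 and 2.84. The most abundant of the 15 largest was CG4440 (chromosome 2L, 16329927 to 16330369), with 5393 FPKM in the wild type and 393 in the knockout. Each of these genes was higher in the knockout at 4-5 h than at 2-3 h, CG4440 reaching 4712 there. The remaining 5, Cyp310a1, CG12420, Ilp4, CG34224 and the noncoding CR43617, had differences from -3.91 to -3.68.

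The earliest zygotic genes, which are transcribed during the nuclear cycles and serve cellularisation, did not behave as one group. Of 16 tested, 7 were lower and 2 higher (median -0.94). Z600 (chromosome 3L, 15502161 to 15502613), an inhibitor of mitosis also known as fruehstart, had an FPKM of 2047 in the wild type and 249 in the knockout. The gene halo, which acts in the transport of lipid droplets, had 1539.5 and 288, and CG14427 had 151 and 30.1. All 3 had intervals far apart. Others that peak at 1-2 h or 2-3 h in the wild type did not pass the limit: bnk, which shapes the actin net of the closing cells, had 98.5 and 80.2, and Sry-alpha, another actin regulator of cellularisation, had 93.5 and 67.1. The furrow genes slam and nullo were higher in the knockout. The gene slam, which organises the furrow front, had 20.7 FPKM in the wild type and 52.1 in the knockout, more than in any wild-type table. The gene nullo, which acts on junctions of the furrow, had 11.8 and 42.05. In the wild type nullo had 114 at 1-2 h, and the knockout level lay between these 2 wild-type values.

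Genes of the segmentation cascade divide the embryo into regions (gap genes), stripes (pair-rule genes) and segments (segment polarity genes). Of 17 gap and head genes tested, 8 were lower and 3 higher (median -0.77). Kr (chromosome 2R, 21114134 to 21118917), the gap gene of the middle of the embryo, had an FPKM of 102 in the wild type and 15.7 in the knockout, 6.53-fold lower. slp1, a forkhead gene of the head that also acts as a pair-rule gene, had 58.7 and 10.2, and the head gene oc (orthodenticle) had 6.67 and 0.665. The other lower members were knrl, pdm2, hkb, nub and kni, with differences from -1.89 to -1.05. The gap genes gt (6.65 and 5.79) and tll (4.56 and 2.99) and the Sox gene D (10.7 and 8.87) were within 2-fold, and the intervals of gt and of D overlapped. The 3 higher members are loaded by the mother. These were hb (4.57 and 14.3), cad, which patterns the posterior (3.76 and 18.1), and cnc (3.18 and 18.2).

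Of 8 pair-rule genes tested, 4 were lower and none higher (median -1.05, or -0.94 without the filter). The lower genes were slp1, opa (7.89 FPKM in the wild type and 0.698 in the knockout), run (5.94 and 1.14) and ftz (29.4 and 12.97). h, prd, eve and odd had differences from -0.99 to -0.81, just short of the limit. All 8 were called lower under median-of-ratios scaling and under quantile normalization. Of 7 segment polarity genes, 3 were lower and 2 higher (median -0.77, or -0.15 without the filter). ci (chromosome 4, 68336 to 77667), the transcription factor of the hedgehog pathway, had 83.1 FPKM in the wild type and 5.71 in the knockout, 14.6-fold lower. nkd, an inhibitor of wingless signalling, had 9.28 and 0.909, and ptc, the hedgehog receptor, had 5.301 and 0.541. The higher members, fz and dsh, are maternally loaded parts of the wingless pathway, at 10.2 and 27.1 and at 4.76 and 18.03. en, hh, gsb and mid were still under FPKM 1 in both tables. Hox genes, which give segments their identity, were tested for 4 of 8 members and all 4 were lower (median -1.25). Ubx (chromosome 3R, 12482345 to 12560348) had 3.999 FPKM in the wild type and 0.247 in the knockout. Antp had 2.07 and 0.204, Dfd 1.398 and 0.0754, and abd-A 2.401 and 0.631. All 4 were under FPKM 1 in the knockout and passed the filter through the wild type. Without the filter the median was -0.64, and with a pseudocount of 10 none was called.

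**Figure D2:**
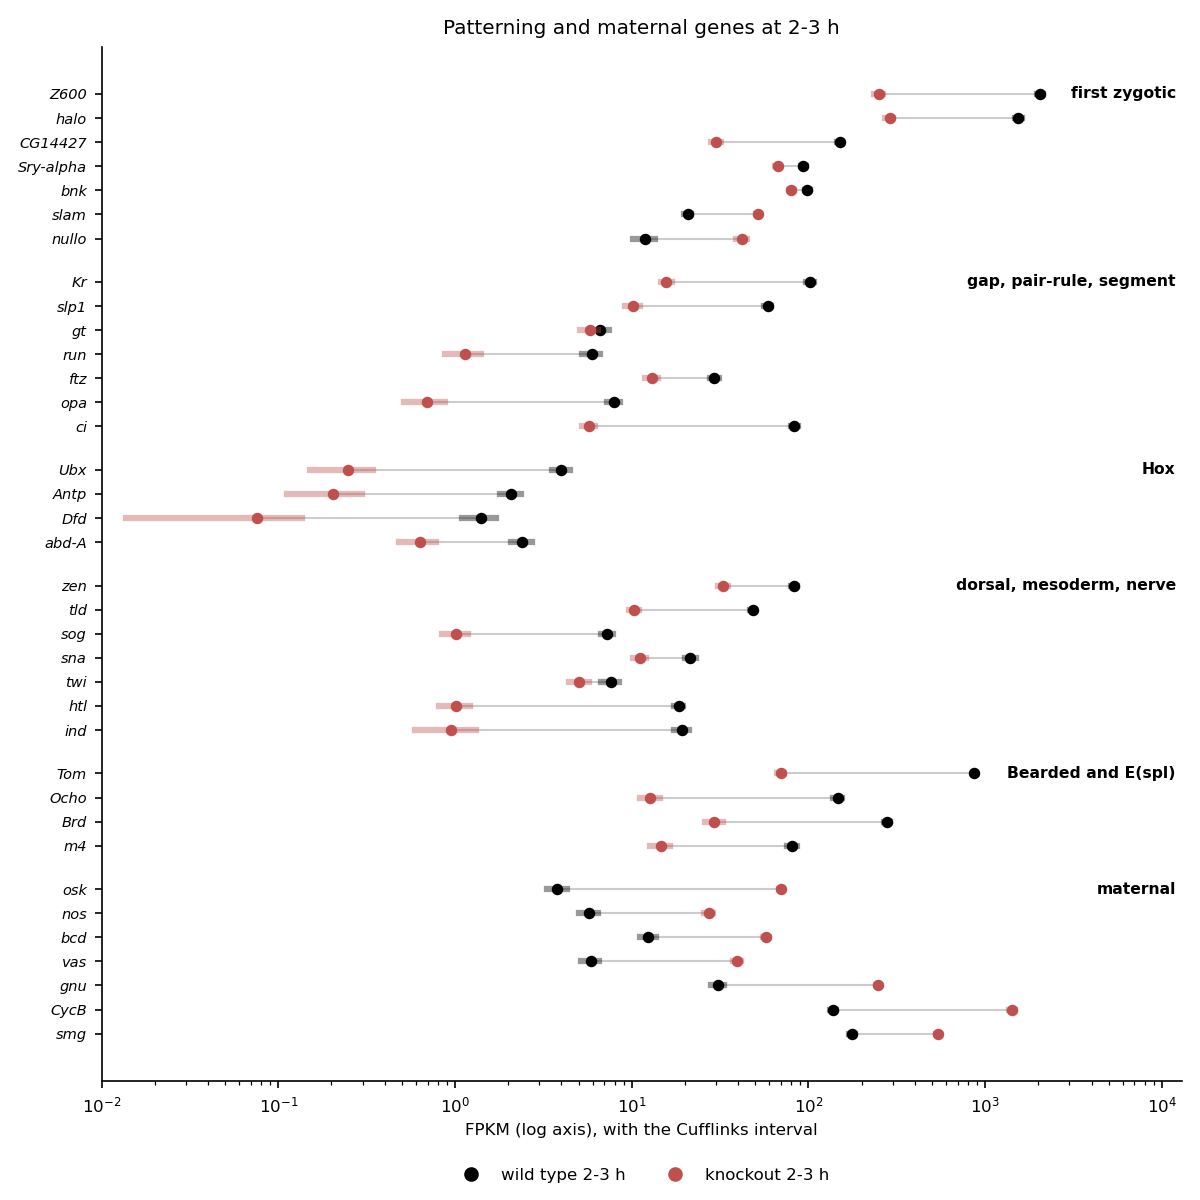
FPKM (x axis, log scale) of 36 genes at 2-3 h in wild-type (black) and maternal NSUN2 knockout embryos (red), 1 table each, with the Cufflinks interval as a bar and a grey line joining the 2 values of a gene. Patterning genes such as Kr (102 and 15.7) and Tom (865 and 69.6) lay to the left in the knockout, gt and bnk lay close together, and maternal transcripts such as osk (3.79 and 69.6) lay to the right.

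Genes of the dorsoventral axis pattern the embryo from back to belly. Of 16 dorsal patterning genes tested, 11 were lower and 1 higher (median -1.30, or -1.03 without the filter). These include the BMP ligand dpp (1.904 FPKM in the wild type and 0.424 in the knockout), its antagonist sog (7.26 and 1.02) and tld, the protease that cleaves Sog (48.5 and 10.4). The homeobox gene zen had 83.2 and 32.9, and the T-box genes Doc1, Doc2 and Doc3 had differences of -2.32, -1.07 and -1.54. The higher member was Dad, an inhibitor of BMP signalling, at 0.278 and 1.99. scw, the second BMP ligand, had 15.7 and 23.1, a difference of 0.53. With a pseudocount of 10, 4 of the 16 dorsal patterning genes were lower and none higher. Of 14 mesoderm and gastrulation genes, 5 were lower and 2 higher (median -0.68, or -0.42 without the filter). The FGF receptor htl had 18.5 FPKM in the wild type and 1.02 in the knockout, and its ligand ths had 11.3 and 0.559. The master genes of the mesoderm differed less. twi had 7.599 and 5.06 and sna had 21.5 and 11.1, both within 2-fold on the log2(FPKM + 1) scale. Both rise steeply afterwards in the wild type, sna to 131 at 3-4 h. fog and Mef2, loaded by the mother, were higher, at 15.6 and 40.1 and at 0.527 and 2.98.

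Of 13 neuroectoderm and proneural genes tested, 9 were lower and 1 higher (median -1.43, or -0.97 without the filter). With a pseudocount of 10, 2 were lower and none higher. ind, which sets the intermediate column of neuroblasts, had 19.2 FPKM in the wild type and 0.951 in the knockout. The proneural gene l(1)sc had 37.99 and 8.36, and ac had 9.22 and 3.38. sca, a secreted protein of neural precursors, had 7.64 and 1.16. The higher member was ttk, a maternally loaded repressor, at 1.55 and 10.4. Of 20 genes of the Notch pathway and the Enhancer of split and Bearded complexes, 10 were lower and none higher. The median was -1.22, or -0.86 without the filter. The Bearded family encodes small inhibitors of the ubiquitin ligase Neuralized. Tom (chromosome 3L, 14962444 to 14963406) had 865 FPKM in the wild type and 69.6 in the knockout, 12.4-fold lower. Ocho had 147 and 12.7, Brd 279.7 and 29.4, BobA 227 and 30.6, and m4 80.7 and 14.6. neur itself had 44.8 and 14.6. Bearded family members are close relatives of each other, and how the counting shared their reads is not given in the sources used here. The basic helix-loop-helix genes HLHm5, HLHm7 and E(spl) were lower, whereas the receptor N (3.84 and 5.02), its ligand Dl (22.4 and 24.3) and the DNA-binding protein gene Su(H) (78.8 and 81.4) were within 2-fold.

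Several of the same genes were already lower in the knockout at 0-0.5 h, the time at which most zygotic genes are silent. In the Notch list 9 of 16 genes tested were lower there, beside 1.7% of all genes tested. Tom was at 40.01 FPKM in the wild type and 12.6 in the knockout at that time, and Brd at 47.0 and 15.3. Among the first zygotic genes 5 of 15 were lower at 0-0.5 h. The wild-type 0-0.5 h table thus held more of these transcripts than the knockout one, and the part of collection timing in the 2-3 h differences was not tested.

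Of 8 genes of the gut, the termini and the yolk nuclei tested, 5 were lower and 1 higher. The median was -1.57, or -0.99 without the filter. With a pseudocount of 10, 2 were lower and 1 higher. Ilp4 (chromosome 3L, 9796499 to 9797363), an insulin-like peptide of the embryo, had 541 FPKM in the wild type and 40.1 in the knockout. wntD, a secreted inhibitor of Dorsal, had 23.8 and 2.804, the GATA factor gene srp 7.58 and 0.876, and the gut gene fkh 3.61 and 0.435. Sex determination and dosage genes, tested for 19 members, had 6 lower and 3 higher (median -0.08, turning to 0.19 under equal summed FPKM). The X-linked switch gene Sxl (chromosome X, 6968583 to 6992089) had 270.4 and 33.4, 8.10-fold lower. sisA, an X-linked activator of Sxl, had 94.7 and 15.97. roX1, a noncoding RNA of the male dosage compensation complex, had 173 and 21.6, and msl-2, which encodes the subunit made only in males, had 4.31 and 0.865. The higher members, mof, msl-1 and the splicing gene fl(2)d, are maternally loaded. Of 19 genes of EGF receptor and FGF signalling, 6 were higher and 4 lower (median 0.36). The share higher, 31.6%, was near the 33.4% of all genes. The median turned to -0.24 under median-of-ratios scaling and -0.30 under quantile normalization, with 2 higher and 5 lower in both. The lower ones were the ligands spi (154 FPKM in the wild type and 23.7 in the knockout) and vn, the ligand-processing protease rho and the antagonist aos, all zygotic or raised in the wild type. The higher ones, among them the torso receptor tor (42.6 and 97.7), the Raf gene phl (18.8 and 66.4) and the MEK gene Dsor1, are loaded by the mother.

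Maternal transcripts made the opposite pattern. The germ plasm at the posterior pole specifies germ cells. Of 16 transcripts tested from a list of genes linked to it, 13 were higher and none lower (median 2.33). osk (chromosome 3R, 4760853 to 4764117), which organises the germ plasm, had an FPKM of 3.79 in the wild type (interval 3.31 to 4.28) and 69.6 in the knockout (interval 67.8 to 71.5). In the wild type osk went from 329 at 0-0.5 h over 123 at 1-2 h, and the knockout, which began at 376, lay between the wild-type levels of 1-2 h and 2-3 h. exu, needed to localise bcd mRNA, had 2.55 and 38.3. The RNA helicase gene vas had 5.85 and 39.5, the translational repressor gene nos 5.73 and 27.2, and gcl, which promotes pole cell formation, 19.5 and 131. aub, tud and stau were within 2-fold.

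Egg activation starts the embryo's program and involves calcium signalling and the pan gu kinase. Of 10 such genes tested, 8 were higher and none lower on the deposited scale (median 2.45). The kinase subunit gnu had 30.8 FPKM in the wild type and 249 in the knockout, and png itself had 0.424 and 9.795. sra, a regulator of calcineurin, had 5.79 and 49.8. wisp, a cytoplasmic poly(A) polymerase, had 5.73 and 58.5, and cort, an activator of the anaphase-promoting complex in meiosis, 0.1703 and 9.05. Cam, which encodes calmodulin, had 2508 and 1562, a difference of -0.68. Genes that silence and destroy maternal mRNAs were themselves higher for 14 of 20 members, and none was lower (median 1.30). The number higher was 8 under median-of-ratios scaling and 9 under quantile normalization. smg, which recruits the deadenylase to its targets, had 176 and 542. twin (chromosome 3R, 20022615 to 20047687), a subunit of the CCR4-NOT deadenylase, had 4.02 and 47.6, and the subunit gene Pop2 74.3 and 186. The repressor genes tral, pum and brat had differences of 2.34, 1.32 and 1.28. me31B (2439 and 3099) and Not1 (80.9 and 97.9), the most abundant repressor of the list and the scaffold of the deadenylase, were within 2-fold.

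Of 13 genes of the maternal Toll pathway tested, which sets the dorsoventral axis, 8 were higher and none lower (median 1.36). The morphogen dl had 0.889 FPKM in the wild type and 13.6 in the knockout. The adaptor Myd88 had 2.55 and 26.8, the kinase pll 6.68 and 54.01, and the ligand spz 7.77 and 29.6. The receptor Tl (136 and 177) and the inhibitor cact (488 and 627) were within 2-fold. Among 15 activators of the early genome, 7 were higher and 1 lower (median 0.79). vfl, the gene of the pioneer factor Zelda, had 14.8 and 17.5, a difference of 0.22, and CG1832, the gene of the GA-binding factor CLAMP, had 235 and 277. A second GA-binding factor, Trl, was higher, at 12.1 and 76.7. bcd (chromosome 3R, 2581564 to 2585199), the anterior morphogen, had 12.4 and 57.6. The lower member was grh, a zygotic transcription factor gene, at 14.3 and 1.07. Of 22 genes of the piRNA pathway, which silences transposons in the germ line, 6 were higher and 1 lower (median 0.51), close to the value over all genes. vas, shu and del were among the higher ones and cuff, a chromatin-bound factor of piRNA source loci, was lower (6.92 and 1.94), whereas AGO3 (191 and 206) and mael (152 and 168) were within 2-fold.

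Of 44 cell cycle genes tested, 20 were higher and 1, Z600, was lower (median 0.84). CycB (chromosome 2R, 18691026 to 18694490), a mitotic cyclin, had an FPKM of 138 in the wild type and 1423 in the knockout, 10.3-fold higher. Rca1, an inhibitor of the anaphase-promoting complex, had 0.669 and 33.1. The phosphatase gene stg (string), whose maternal mRNA is destroyed at the end of the nuclear cycles, had 3.99 and 30.5, and its relative twe had 145 and 238, a difference of 0.71. The opposing kinase genes wee and Myt1 and the checkpoint kinase gene grp were also higher, with differences of 2.40, 2.27 and 2.33. The mitotic kinase genes polo (832 and 609.9) and cdc2 (799 and 602) had differences of -0.45 and -0.41 and were not called. Of 11 tubulin and centrosome genes, 6 were higher and 1 lower (median 1.02, with 3 higher under median-of-ratios scaling). The maternal isoforms alphaTub67C (1.28 and 35.5) and gammaTub37C (1.01 and 28.5) differed most, and sas-6, a centriole gene, was lower, at 12.2 and 5.499.

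**Figure D3:**
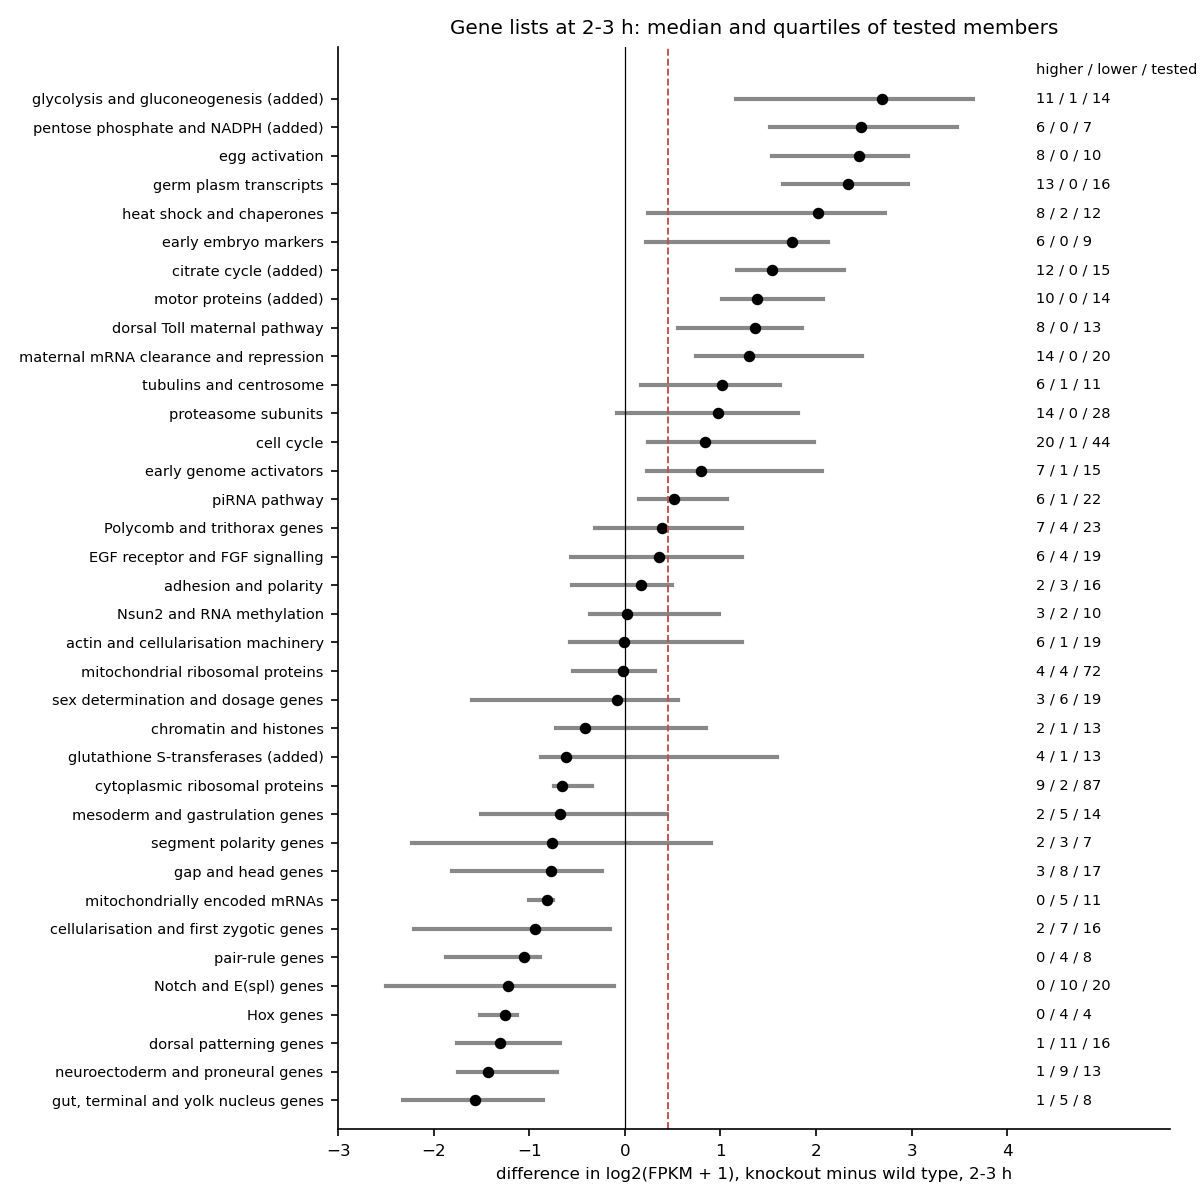
Median (dot) and quartiles (bar) of the difference in log2(FPKM + 1) between maternal NSUN2 knockout and wild-type embryos at 2-3 h for 36 gene lists with at least 4 tested members, with the numbers higher, lower and tested at the right. The dashed line is the median of all genes tested, 0.45. Lists marked as added were chosen after the values were seen. Egg activation and germ plasm genes lay above the line (2.45 and 2.33), as did the added glycolysis list (2.69), and lists of zygotic patterning genes lay below it, down to -1.57, as did mitochondrially encoded mRNAs (-0.81) and the added glutathione S-transferases (-0.61).

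The next 5 lists, of metabolic enzymes, glutathione S-transferases and motor proteins, were added after the values had been seen, so their counts are a description of genes already seen to differ. Gapdh2 (chromosome X, 15762178 to 15763694), a glycolytic dehydrogenase, was the first by size, with an FPKM of 1.41 in the wild type (interval 0.967 to 1.86) and 82.4 in the knockout (77.9 to 86.8). Wild-type embryos started from 101 FPKM at 0-0.5 h and stood at 9.01 at 3-4 h, and knockout embryos started from 239.8. The wild-type 2-3 h value was thus the lowest of its 5. Of 14 genes of glycolysis and gluconeogenesis, 11 were higher and 1 lower (median 2.69). Eno had 2.03 and 47.2, Gapdh1 2.24 and 39.6, and the hexokinase gene Hex-A 3.05 and 46.2. Pepck, a zygotic gene of gluconeogenesis, was lower, at 4.07 and 0.837. Of 7 pentose phosphate and NADPH genes, 6 were higher (median 2.47). They include Idh (chromosome 3L, 8349504 to 8354006), an NADP-dependent isocitrate dehydrogenase, with 2.04 FPKM in the wild type and 99.9 in the knockout, and the transaldolase gene Tal, with 1.89 and 43.4. Of 15 citrate cycle genes, 12 were higher and none lower (median 1.54, with 7 higher under quantile normalization), among them Mdh2 (0.896 and 24.1) and Mdh1 (39.0 and 204.6). Glutathione S-transferases were mixed, with 4 of 13 higher and 1 lower (median -0.61, turning to 0.80 at FPKM of 5 or more and -0.07 without the filter). On the deposited scale their share higher was 30.8%, beside 33.4% of all genes. Under median-of-ratios scaling 6 of 14 were lower. GstD1 had 7.15 and 175, whereas GstE7 had 61.7 and 24.1. These genes lie in clusters of near relatives, and reads of near-identical members may be shared. Of 14 motor protein genes, 10 were higher and none lower (median 1.38, with 6 higher under quantile normalization). Khc (chromosome 2R, 12154465 to 12159483), the kinesin heavy chain, had 2.42 and 53.2, and Dlic, a dynein light intermediate chain, had 2.28 and 66.9.

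The other genes among the 15 largest higher differences were also maternal transcripts cleared in the wild type, except for Rca1, which was raised again, and CG43134. dhd (chromosome X, 5206406 to 5207155), a thioredoxin that the egg needs to remodel sperm chromatin, had an FPKM of 53.1 in the wild type and 1176 in the knockout. Adh, alcohol dehydrogenase, had 1.497 and 56.5. The cytochrome P450 gene Cyp6a19 had 0.645 and 40.2. CG42351 had 11.1 and 271. CG43134 was listed at 0 in the wild type at 2-3 h and had 23.9 FPKM in the knockout. In the wild type it was also at 0 at 0-0.5 h, with 4.69 at 1-2 h. CG6287, CG2789, CG33156, CG4991 and CG12214 had differences from 4.12 to 4.55.

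Chaperones split within a single cluster. Of 12 heat shock and chaperone genes tested, 8 were higher and 2 lower (median 2.02, or 0.04 without the filter, which adds 8 members under FPKM 1 in both tables). On 3L, Hsp26 (17.2 FPKM in the wild type and 255.4 in the knockout) and Hsp27 (55.6 and 707) were higher. Their neighbour Hsp23 (chromosome 3L, 9374982 to 9375865) was lower, at 341 and 29.6, and Hsp22 had 68.7 and 93.4. The inducible Hsp70 genes were at or near 0 in both tables, the highest being 0.04401 FPKM. The stress-linked noncoding RNA Hsromega was lower, at 117 and 11.7, and the cytosolic chaperone genes Hsp83 (42.6 and 299) and Hsc70-4 (206 and 432) were higher. Of 28 proteasome subunit genes, 14 were higher and none lower (median 0.98). The ATPase subunits Rpt3 (3.63 and 48.7) and Rpt1 (11.2 and 89.3) differed most. Core subunits such as Pros26 (1095 and 829.5) and Pros35 (950.1 and 680.3) had differences of -0.40 and -0.48.

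Calls among ribosomal and mitochondrial genes depended on the scaling. Of 87 cytoplasmic ribosomal protein genes tested, 2 were lower and 9 higher, and the median was -0.65. Under median-of-ratios scaling 58 of them were lower and 3 higher (median -1.15), and under quantile normalization 1 was lower and 13 higher (median 0.01). RpL41, the most abundant, had 46640.3 FPKM in the wild type and 26452 in the knockout. The 9 higher members included RpL3 (369 and 1276), RpL7A (499 and 1609) and RpL6 (585 and 1749). In the wild type these 3 genes reached 2285, 2712 and 3592 at 3-4 h. Of 72 mitochondrial ribosomal protein genes, 4 were higher and 4 lower (median -0.02, turning to 0.27 under equal summed FPKM). Under median-of-ratios scaling 3 were higher and 21 lower (median -0.52), and under quantile normalization 2 and 11. Of 11 mitochondrially encoded mRNAs, 5 were lower and none higher (median -0.81). mt:CoI had 7765 and 3876, and mt:ATPase6 6024 and 2516. All 11 were lower under median-of-ratios scaling (median -1.32), 2 under quantile normalization and none under equal summed FPKM.

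Chromatin genes were mixed. Of 13 chromatin and histone genes, 2 were higher and 1 lower (median -0.42), whereas under median-of-ratios scaling none was higher and 6 were lower (median -0.92). HmgZ, a high mobility group gene that rises in the wild type from 4.48 at 0-0.5 h, had 211 FPKM at 2-3 h and 18.4 in the knockout. Of 23 Polycomb and trithorax genes, 7 were higher and 4 lower (median 0.39). Their share higher, 30.4%, was near the 33.4% of all genes. The median turned to -0.07 under median-of-ratios scaling and -0.10 under quantile normalization. The lower ones were the Polycomb genes Pc (32.8 and 9.79), E(z) (25.6 and 7.47) and ph-p (6.55 and 1.43) and the methyltransferase gene trx (10.8 and 4.203). The DNA-binding protein gene phol (0.618 and 13.8) and the remodelling gene mor (9.27 and 42.3) were among the higher ones. Of 16 adhesion and polarity genes, 2 were higher and 3 lower (median 0.17, turning to -0.31 and -0.36 under median-of-ratios scaling and quantile normalization). The lower ones were sdt (12.4 and 1.21), a partner of the apical determinant crb, and the Toll receptor genes Tollo and 18w. Of 19 actin and cellularisation genes, 6 were higher and 1 lower (median -0.01, turning to 0.24 under equal summed FPKM). The share higher, 31.6%, was again near that of all genes. Under median-of-ratios scaling 5 were higher and 7 lower (median -0.45). The one lower on the deposited scale was pbl (chromosome 3L, 7889209 to 7905051), an activator of Rho1 in cytokinesis, at 189.6 and 23.6. The higher ones included Act5C (440.0 and 1272) and scra, which encodes anillin (8.68 and 41.2). In the list of Nsun2 and other RNA methylation genes, 3 of 10 (30%) were higher, also near the share of all genes, and 2 lower. The median of 0.03 turned to -0.47 under median-of-ratios scaling and -0.07 under quantile normalization. Besides Nsun2 the lower one was Ime4, the methyltransferase of N6-methyladenosine in mRNA, at 19.3 and 4.66. Mt2, a tRNA cytosine methyltransferase gene, had 7.46 and 5.504, and fl(2)d, a cofactor of N6-methyladenosine formation, was higher, at 14.2 and 85.96.

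The wild-type course gave a scale on which to place the knockout level. The wild-type 2-3 h value enters both this comparison and the calls. The class rule also fixes the direction of the wild-type course, so the counts are a description. Among the 494 higher genes of the cleared class, the knockout 2-3 h level was nearest to the wild-type level of 1-2 h for 269 (54.5%) and to that of 0-0.5 h for 205 (41.5%). Their median FPKM in the wild type went from 41.8 at 0-0.5 h over 25.7 at 1-2 h to 5.08 at 2-3 h, and was 28.3 in the knockout at 2-3 h. Among the 271 lower zygotic genes the knockout was nearest to 0-0.5 h for 144 and to 1-2 h for 125. Their median FPKM was 1.22 at 1-2 h and 4.42 at 2-3 h in the wild type, and 0.559 in the knockout at 2-3 h. For all genes tested together, 35.6% were nearest to 0-0.5 h and 25.4% to 1-2 h. The 1859 higher genes loaded and kept were spread more widely. Of these, 39.3% were nearest to 0-0.5 h, 10.2% to 1-2 h, 32.0% to 3-4 h and 18.2% to 4-5 h.

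A part of the differences lay outside the wild-type course. The knockout interval was above the intervals of all 5 wild-type tables for 810 of the 2462 higher genes (32.9%), and below all 5 for 170 of the 765 lower genes (22.2%). Among all 7374 genes tested it was above for 1054 (14.3%) and below for 436 (5.91%). The wild-type 2-3 h value enters both the calls and these counts, so the shares among called genes are a description. Among the higher genes was Khc, whose knockout level of 53.2 FPKM exceeded the highest wild-type level of 12.4. CycB was at 1423 against a wild-type maximum of 670.0, bcd at 57.6 against 33.3, and sra at 49.8 against 13.8. TepII, Dic1 and Vps26, named after their values were seen, were also above all wild-type tables. TepII, a complement-like immune gene, had 11.9 FPKM against a wild-type maximum of 2.52. The mitochondrial dicarboxylate carrier gene Dic1 had 36.6 against 10.5, and the retromer gene Vps26 had 117 against 35.5. Below every wild-type table were Hsp23, pbl and Pc, and also CG18446 (9.94 FPKM against a wild-type minimum of 59.1) and Srp9, a subunit of the signal recognition particle (45.1 against 124), both also named after their values were seen. Pc had 40.3 FPKM in the wild type and 46.5 in the knockout at 0-0.5 h, and pbl had 63.3 and 54.9. For these 2 genes the genotypes thus began near each other and were apart at 2-3 h. Others named here were already apart at 0-0.5 h. In the wild type and the knockout, Khc had 11.1 and 37.7 FPKM there, sra 13.8 and 27.1, and TepII 0.949 and 11.9. Dic1 had 10.5 and 34.97, Vps26 35.5 and 82.2, CG18446 149.8 and 22.8, and Srp9 198 and 55.1. The part of these early differences in those at 2-3 h was not tested. Genes loaded and kept made up 657 of the 810 above the wild type and 119 of the 170 below it, and 5447 of the 7374 genes tested. For 1421 of the 1859 higher genes of that class (76.4%) the wild-type level was at its lowest at 2-3 h and recovered later, as for stg, which went from 22.2 at 1-2 h to 3.99 and then 104 at 3-4 h. The knockout level of stg was 56.3, 30.5 and 39.6 in its 3 tables. Over all 7374 genes tested, 33.8% had their lowest wild-type level at 2-3 h. A low wild-type value at 2-3 h itself favours a higher call, so the 76.4% is also a description.

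**Figure D4:**
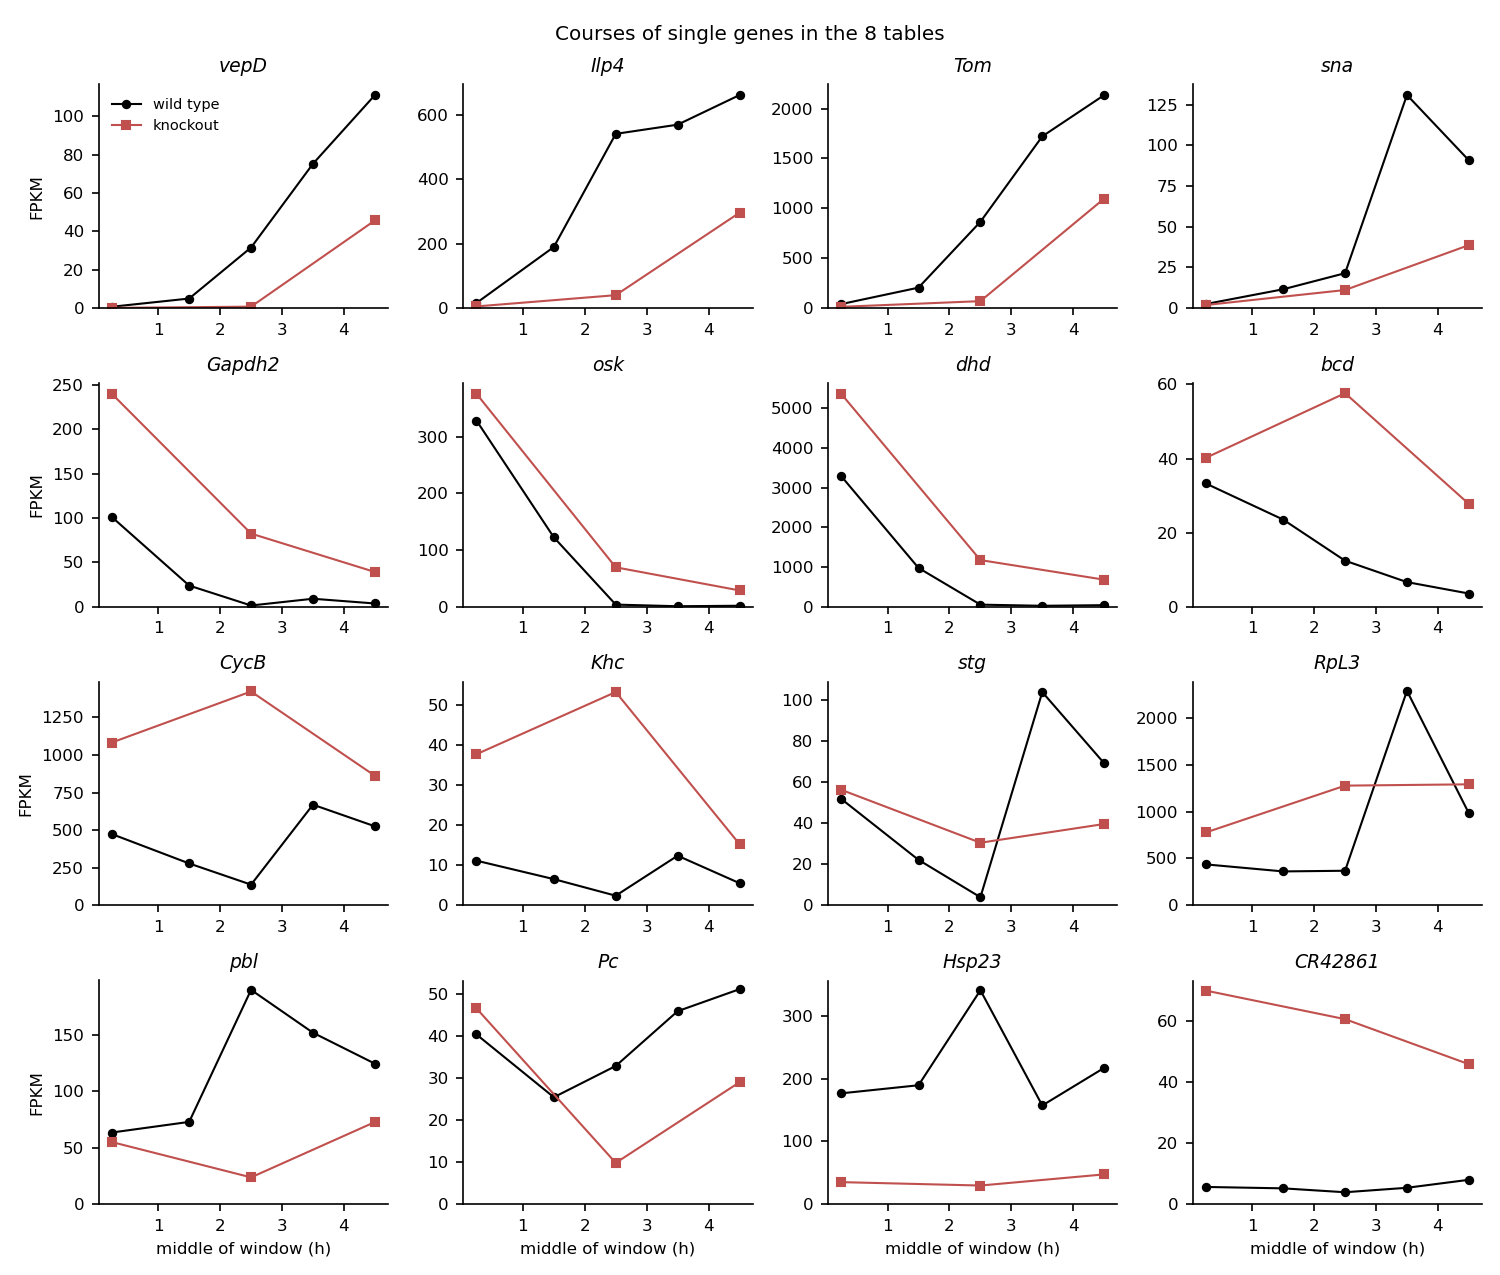
FPKM (y axes, linear, from 0) of 16 genes against the middle of the collection window in h (x axes) in 5 wild-type tables (black circles) and 3 maternal NSUN2 knockout tables (red squares), joined by lines. The first row shows genes on the rise in the wild type whose knockout level at 2-3 h lay below it (31.6 and 0.745 for vepD, sna not called), the second maternal genes that were higher (3.79 and 69.6 for osk), the third genes with a wild-type low at 2-3 h (except for RpL3, with its low at 1-2 h) and the fourth genes below or above all wild-type tables.

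Some differences were present at each matched time. Of the 2462 genes higher at 2-3 h, 2445 were tested at 0-0.5 h and 394 of them (16.1%) were higher there as well, making up 71.8% of those higher there. At 4-5 h, 471 of 2382 (19.8%) were higher, making up 51.3% of those higher there. Of the genes lower at 2-3 h, 87 of 366 tested (23.8%) were lower at 0-0.5 h, or 78.4% of those lower there, and 205 of 732 (28.0%) at 4-5 h, or 53.2%. Among all genes tested at a time, 33.4% were higher and 10.4% lower at 2-3 h. These shares were 8.25% and 1.7% at 0-0.5 h, and 11.6% and 7.42% at 4-5 h. Some lists that were mostly higher at 2-3 h already held higher genes at 0-0.5 h. These were 7 of 28 proteasome, 4 of 11 tubulin and centrosome, 4 of 14 motor protein and 4 of 16 germ plasm genes. Others held fewer, with 2 of 20 clearance and repression genes and 4 of 45 cell cycle genes. All 3 comparisons use different tables. In all, 93 genes were higher and 41 lower at all 3 times, and 6 were higher and 1 was lower by at least 4-fold at each. The lower gene was Hsp23. In time order its FPKM was 176, 341 and 217 in the wild type and 34.98, 29.6 and 47.3 in the knockout. Among the higher genes, the noncoding CR42861 (chromosome X, 13638961 to 13639509) had 5.60, 3.87 and 7.93 in the wild type and 69.8, 60.4 and 45.7 in the knockout. CG42565 had 4.43 and 27.3 at 2-3 h, obst-B, a chitin-binding protein gene, 0.332 and 11.01, CG2993 1.001 and 8.16, and CG2789, known as Tspo in current annotation, 0.778 and 38.4. CG32641 (chromosome X, 13078511 to 13079006) was listed at 0 in all 5 wild-type tables and had 12.3 FPKM in the knockout at 2-3 h. Its neighbour CG32640 ran the other way, at 20.1 in the wild type and 9.37 in the knockout, and the sum over the pair was 20.1 and 21.6. How reads shared by the 2 genes were assigned is not given in the sources used here, so the level of either alone is uncertain. Whether this class of differences follows NSUN2 or other differences between the stocks cannot be told apart.

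Differences were not spread evenly over the genome. Of 1181 X-linked genes tested, 46.9% were higher and 5.25% lower in the knockout (median 0.94). Over chromosomes 2 and 3 together, 31.4% of 6033 genes were higher and 11.2% lower (median 0.37). The 4 large autosome arms had medians from 0.32 to 0.44, and the 66 genes of chromosome 4 a median of -0.20. In the cleared class the medians were 1.72 on the X and 1.35 on chromosomes 2 and 3, and among genes loaded and kept 0.97 and 0.45. Zygotic genes that passed the filter were lower on both, with medians of -1.33 and -1.45. The median level of X-linked genes at 2-3 h was 5.997 FPKM in the wild type and 17.2 in the knockout, against 14.6 and 24.7 on chromosomes 2 and 3. At 0-0.5 h the median differences were 0.21 on the X and 0.10 on chromosomes 2 and 3, and at 4-5 h they were -0.10 and -0.21. Nsun2 itself is X-linked and the mothers' X chromosomes carry the mutant allele, so the genotype and the rest of that chromosome cannot be told apart. The median was higher on the X than on chromosomes 2 and 3 in each of the alternative settings tried, among them median-of-ratios scaling (0.54 and -0.12) and quantile normalization (0.48 and -0.05).

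Differences also moved with gene span, the distance from the start to the end of the gene in the tables. Genes under 1000 bases were higher for 8.44% and lower for 17.1% of 1019 tested (median -0.33), genes of 1000 to 2000 bases had a median of 0.17, and genes of 2000 to 5000 bases a median of 0.81. The medians of the 3 longer classes were 0.83, 0.73 and 0.73. For genes of 2000 to 5000 bases the median level in the wild-type tables of 1-2 h, 2-3 h and 3-4 h was 16.02, 10.5 and 21.8 FPKM. The same medians for genes under 1000 bases were 36.2, 29.0 and 29.3. Span was thus tied to the higher calls, and its part in them was not tested. Calls also moved with level, taken as the larger FPKM of the 2 tables compared. Genes at 1 to 5 FPKM were higher for 24.5% (median 0.24) and those at 5 to 20 for 45.9% (median 0.85). At 500 FPKM or more the share higher was 8.77% (median -0.56). Level, span and chromosome were not separated. Zygotic genes that passed the filter on low levels were lower in each span class, with medians from -1.71 to -1.14. Of 85 zygotic genes over 20000 bases, 55 passed, and 48 of these were called lower. The 55 had a median level of 3.29 FPKM in the wild type and 0.537 in the knockout. A weakly expressed gene could pass through the wild type alone. Cleared genes were higher in each span class, with medians from 0.83 to 1.63.

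**Figure D5:**
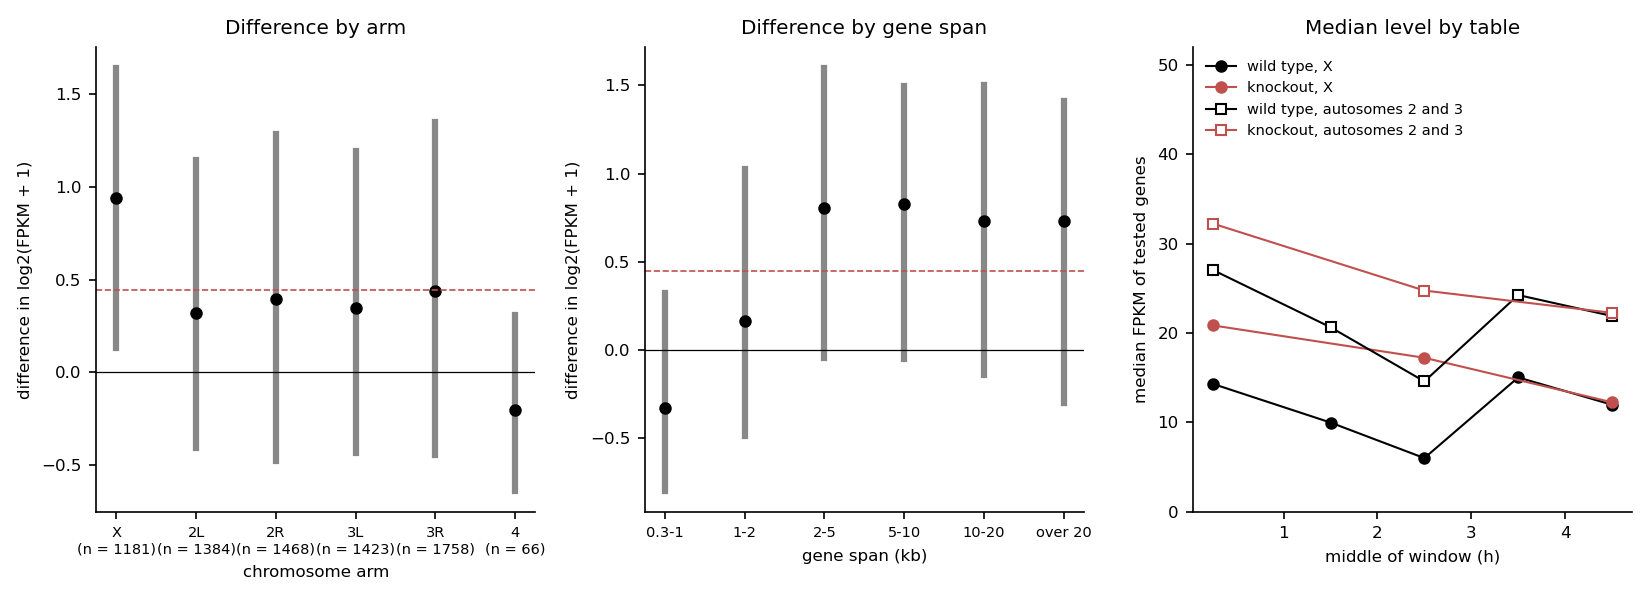
Left and middle, median (dot) and quartiles (bar) of the difference in log2(FPKM + 1), knockout minus wild type at 2-3 h (y axis), by chromosome arm and by gene span in kb, with the median of all genes, 0.45, as the dashed line. Right, median FPKM of the tested genes (y axis) against the middle of the window in h (x axis) for X-linked genes (filled) and genes on chromosomes 2 and 3 (open): both wild-type lines are lowest at 2-3 h, at 5.997 and 14.6, and the knockout lines are at 17.2 and 24.7 there.

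The limit of 2-fold cut through a continuous range. Among higher genes, a gene just inside it had a difference of 1.00 and another just outside 0.998. In this direction 202 genes lay less than 0.1 inside and 212 less than 0.1 outside. Among lower genes, 88 lay less than 0.1 inside and 103 less than 0.1 outside.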

How the data were processed

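The 8 deposited tables hold 1 FPKM value per gene with a lower and an upper bound and a status, made by the authors from polyA-selected, strand-specific libraries of pooled embryos. Per the labels and methods, reads were trimmed with cutadapt 1.13, aligned to BDGP5 with TopHat2, and quantified with Cufflinks on unique alignments. The methods say that FPKM of replicates was averaged. Whether a table is 1 library or a mean is not given in the sources used here. FPKM corrects for gene length and depth within a table. SIRV spike-in RNA was added, but none is listed, so total RNA per embryo was not compared, and depth is unknown.

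Here FPKM was compared as log2(FPKM + 1), without a test, in Python 3.11.15 (numpy 2.4.6, pandas 2.3.3, scipy 1.17.1). Genes needed status OK in both tables, FPKM of 1 in either and a span of 300 bases. Calls needed a difference of 1 and separate intervals. The named genes are Nsun2, the 15 largest called differences in each direction with FPKM of 10 or more in either table, the 3 most abundant and 3 most different members of each list, and genes called by 4-fold at all 3 times. Others were chosen after their values were seen. Members and lists were chosen with earlier results of these data known. Of the listed gene symbols, 5 matched no gene. Alternatives changed the pseudocount, filters, scaling, call rule and class limits. A planned motif search in promoters was not run, since no sequence of the build of the tables was at hand.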

Additional observations from a re-analysis of the deposited data

Results flagged for a closer look

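For 5 named genes the difference at another matched time was called in the opposite direction from that at 2-3 h. Of all 366 genes lower at 2-3 h and tested at 0-0.5 h, 17 (4.64%) were higher there. Of 2445 higher ones, 2 (0.08%) were lower there. At 4-5 h, 20 of 2382 higher ones (0.84%) were lower, and 1 of 732 lower ones (0.14%) was higher. Among all genes tested, 8.25% were higher and 1.7% lower at 0-0.5 h, and 11.6% and 7.42% at 4-5 h. Whether the differences differ between times was not tested. Ime4, the N6-methyladenosine methyltransferase gene, was lower at 2-3 h (-1.84) and higher at 0-0.5 h (1.33), with 4.55 FPKM in the wild type and 13.0 in the knockout at the earlier time. Tollo, a Toll family receptor gene, was at -1.96 at 2-3 h and 2.60 at 0-0.5 h, where its FPKM was 0.532 and 8.27. The piRNA pathway gene cuff was at -1.43 and 1.14 at these times, with 3.48 and 8.89 FPKM at 0-0.5 h. All 3 genes had less transcript in the knockout at 2-3 h than at 0-0.5 h, whereas the wild type had more.

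The other 2 genes were higher in the knockout at 2-3 h and lower at 4-5 h. The muscle actin gene Act57B was at 1.49 at 2-3 h and -2.69 at 4-5 h, with 5.99 FPKM in the wild type and 0.0807 in the knockout at the later time. The repressor gene ttk was at 2.17 and -1.14, with 21.8 and 9.33 FPKM at 4-5 h.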

How the results depend on the processing

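The direction of the class medians (cleared genes and genes loaded and kept higher, zygotic genes lower) held in each alternative tried. Their sizes moved. In the order cleared, kept and zygotic, the medians were 1.54, 0.57 and -2.47 with a pseudocount of 0.1, 0.79, 0.26 and -0.33 with a pseudocount of 10, 0.95, 0.057 and -1.70 under median-of-ratios scaling, 1.66, 0.78 and -1.29 under equal summed FPKM, and 0.88, 0.065 and -1.79 under quantile normalization. The zygotic median was -0.97 without the FPKM filter, -2.21 at FPKM of 5 or more, where the kept median was 0.45, and -1.54 with class limits of FPKM 0.5 and 8-fold. The cleared median was 1.81 with class limits of FPKM 5 and 8-fold. Counts of higher and lower genes were 1127 and 220 with a pseudocount of 10, 1526 and 1238 under quantile normalization, and 769 and 230 with a 4-fold limit. Lower genes numbered 1492 under median-of-ratios scaling and 471 at FPKM of 5 or more. The median of cytoplasmic ribosomal protein genes turned from -0.65 to 0.014 under quantile normalization. The cause of these shifts was not tested. No paired analysis was possible because each condition has 1 table and the labels give no replicate numbers. Depth is unknown, and replicate spread, collection age, background and batch cannot be told apart from the genotype.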
